A study of Mus musculus with 3 samples.

Results

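Laminins are the adhesive glycoproteins around which basement membranes are built, and 9 genes that encode their chains were followed here: Lama1, Lama2, Lama3, Lama4, Lama5, Lamb1, Lamb2, Lamb3 and Lamc1. They were picked by gene name from the 43472 rows of the deposited table. Transcripts were measured by RNA-seq in primary fibroblasts grown from the tail tips of C57BL/6 mice, scratched in culture as an in vitro wound, and treated for 5 h with the soluble micrograft extract (MG) of mouse skin, diluted 1:10, together with PD0325901. PD0325901 inhibits MEK, the kinase that activates ERK, and all 3 libraries (replicates 1, 2 and 3) received both agents, so none of them serves as a control. Untreated fibroblasts and fibroblasts given the MG without the inhibitor were not analysed here, and no effect of the MG or of the inhibitor on laminin genes was computed. The sources used here do not say whether the replicates came from different mice, cultures or MG preparations, so their spread may be partly technical.

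A laminin molecule is a cross-shaped trimer of 1 alpha, 1 beta and 1 gamma chain, joined along a coiled coil in the endoplasmic reticulum before secretion. The end of the alpha chain binds cell surface receptors, mainly integrins and dystroglycan, while the short arms of most chains join into a network and gamma-1 binds nidogen. In skin, a trimer that holds alpha-3 and beta-3 anchors basal keratinocytes to the dermis. Fibroblasts and vascular cells are known for chains of the alpha-2, alpha-4 and alpha-5 type together with beta-1 or beta-2 and gamma-1.

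Levels are given as normalized counts, the number of reads on a gene divided by 1 size factor of its library. Reads on genes summed to between 17244505 and 27037783 per library, so that 3 reads, the limit that a count of 0 allows, equalled 2.11 to 3.56 normalized counts. These limits cover counting error only. The labelled cell type was checked against its markers, and all 10 genes of a fibroblast list (Col1a1, Pdgfra, Pdgfrb, Vim and others) reached 10 normalized counts in every library, which is the minimum for calling a gene detected. Of these, 3 ranged over more than 2-fold, against 21.6% of all 12204 detected genes, and replicate 2 was at one end. Thy1 had 2031, 15760 and 1652 normalized counts, Dcn had 3661, 1723 and 3659, and Lum had 5073, 289 and 1164. Replicate 2 stood apart from the other libraries. Its level differed from both of them, in 1 direction and by more than 2-fold, in 10.1% of the 13154 genes with a mean of at least 10 normalized counts, against 4.26% for replicate 1 and 3.58% for replicate 3. Some laminin results that rest on replicate 2 are therefore given with and without it.

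Of the 9 laminin genes, 7 were detected by this minimum. Lama1 and Lama3 were not, although both had reads. Lamb2, Lamb1 and Lamc1 gave at least 2508 normalized counts in each library, Lama4 and Lama5 between 701 and 2574, and Lama2 and Lamb3 at most 697, with wide differences between the libraries.

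Lama4 (chromosome 10, 38965515 to 39110188, plus strand, GRCm38) encodes the alpha-4 chain of blood vessel and mesenchymal basement membranes, which has a shortened arm. Replicates 1, 2 and 3 gave 1553, 1506 and 1835 normalized counts of it, on average 1632 ± 178 (SD, n = 3). This was the steadiest of the laminin genes, with a 1.22-fold distance from the lowest to the highest library, and 82.2% of all 12204 detected genes had a wider one. Lama5 (chromosome 2, 180176373 to 180225859, minus strand) encodes alpha-5, a chain of many adult epithelial and vascular basement membranes. Its level was 701, 2574 and 1477 normalized counts in that order of replicates, on average 1584 ± 941 (SD, n = 3). The 3 libraries were spread evenly over a 3.67-fold range, and without replicate 2 the remaining ones still differed 2.11-fold.

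Lama2 (chromosome 10, 26980036 to 27619758, minus strand), the gene of the alpha-2 chain of muscle and peripheral nerve, was read at 93.8, 617 and 160 normalized counts across replicates 1, 2 and 3. Replicate 2 was 6.57-fold above replicate 1 and 3.85-fold above replicate 3, while the other libraries lay 1.71-fold from each other. The mean was 290.1 ± 285 (SD, n = 3) with replicate 2 and 127 without it, so the SD was about as large as the level itself. An antisense gene, Gm48084, overlaps 631 bases of the Lama2 exons, 3.86% of their length, and no level of Gm48084 was obtained. Within that stretch, reads of the pair cannot be told apart if strand was not counted. In a culture read as a whole, fewer cells that make a transcript and less of it per cell cannot be told apart, and this holds for every level given here.

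Lama1 (chromosome 17, 67697259 to 67822647), a chain of the earliest embryonic basement membranes, was near the limit of detection in replicates 1 and 3 only. It rested on 6, 71 and 0 reads, or 5.21, 50.03 and 0 normalized counts across replicates 1, 2 and 3, and the 95% exact Poisson interval in replicate 2 was 39.1 to 63.1. Replicate 2 was at least 14.1-fold higher than the limit of 3 reads in replicate 3. Lama3 (chromosome 18, 12333819 to 12583013), the alpha chain of the epidermal trimer, rested on 7, 21 and 3 reads, or 6.08, 14.8 and 3.56 normalized counts. The intervals of replicates 1 and 2 overlap, from 2.44 to 12.5 and from 9.16 to 22.6, so the order of the libraries for Lama3 is poorly fixed at this depth. Both genes nonetheless had their highest normalized counts in replicate 2, as Lama2 and Lama5 did. In normalized counts, replicate 2 was the highest library for all the alpha chain genes but Lama4, for which it was the lowest. For Lama3 this rests on few reads, and the share of all genes highest in replicate 2 is not given here.

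**Figure D1:**
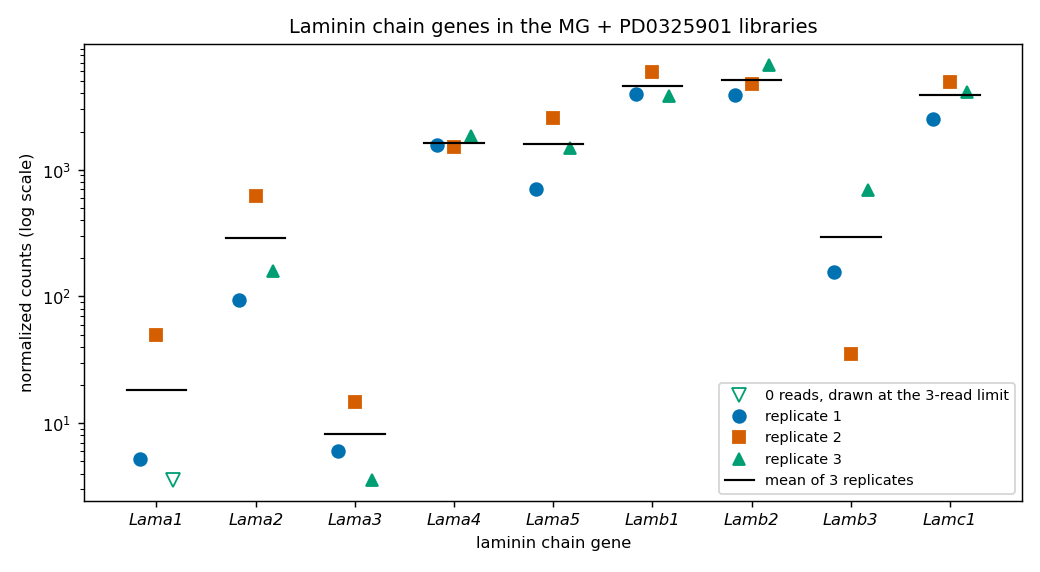
Normalized counts (log scale) of the 9 laminin chain genes in each library, with symbols for replicates 1, 2 and 3 and a line at the mean, and an open triangle where no read was counted, drawn at the limit of 3 reads. Lama4 stays between 1506 and 1835, Lama2 is highest in replicate 2 at 617, and Lamb3 runs from 35.2 in replicate 2 to 697 in replicate 3.

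Among the beta chain genes, Lamb1 and Lamb2 were high in every library and Lamb3 was not. Lamb1 (chromosome 12, 31265234 to 31329644) encodes the widely made beta-1 chain, and replicates 1, 2 and 3 gave 3934, 5893 and 3786 normalized counts, on average 4537 ± 1176 (SD, n = 3). Lamb2 (chromosome 9, 108479736 to 108490530) encodes beta-2, known from the neuromuscular junction and the kidney filter, and was read at 3904, 4718 and 6730 normalized counts, on average 5117 ± 1455 (SD, n = 3). Both differed by less than 2-fold between libraries, but in a different order, with replicate 2 the highest for Lamb1 and replicate 3 the highest for Lamb2.

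Lamb3 (chromosome 1, 193207699 to 193343878, plus strand), the beta chain of the epidermal trimer, was read at 157, 35.2 and 697 normalized counts across replicates 1, 2 and 3, on 181, 50 and 588 reads. All the libraries lay far apart, with replicate 3 a further 4.43-fold above replicate 1 and replicate 1 a further 4.46-fold above replicate 2. The whole range was 19.8-fold, and 0.197% of the detected genes, 24 of 12204, had a wider one. The mean of 296 ± 352 (SD, n = 3) therefore describes none of the cultures. The 50 reads of replicate 2 carry a counting error of 14.1%, small beside these differences.

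Lamc1 (chromosome 1, 153218922 to 153332786, minus strand), which encodes the gamma-1 chain found in most laminins, was read at 2508, 4940 and 4121 normalized counts across replicates 1, 2 and 3. It averaged 3856 ± 1238 (SD, n = 3), and its 1.97-fold range fell just inside the 2-fold limit, which it passed, at 2.02-fold, when the libraries were scaled to equal totals. Lamc3, which encodes a minor gamma chain and is not a member of the group, had 63.4, 31.7 and 41.5. Of the epidermal alpha and beta chains, Lamb3 thus varied 19.8-fold and Lama3 stayed near the limit of detection.

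Pairs of libraries were then compared gene by gene, to ask which laminin differences exceed counting error. The two-sided exact binomial test on reads was run on every gene that had 10 reads or more across both libraries, p-values were adjusted by the Benjamini-Hochberg method, and a gene was called at an adjusted p under 0.05 with more than 2-fold. The test compares libraries and not conditions, and it does not cover the variation between cultures. Between replicates 1 and 2, 4 of 9 laminin genes were called, against 19.8% of all 14771 genes: Lama1, Lama2 and Lama5 were higher in replicate 2 and Lamb3 was lower. Between replicates 1 and 3, 2 of the 8 genes with enough reads were called, Lama5 and Lamb3, both higher in replicate 3, against 8.78% of 14316 genes. Between replicates 2 and 3, 4 of 9 were called, against 16.1% of 14344 genes, with Lama1, Lama2 and Lama3 higher in replicate 2 and Lamb3 higher in replicate 3. Where called, Lama1 and Lama3 reached the minimum of 10 reads only through replicate 2, the library where they were high. Their places in these counts therefore follow partly from the minimum.

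For the genes these calls turn on, the difference between replicates 2 and 1 was 2.70 on the log2 scale for Lama2 (pseudocount 1, adjusted p = 4.48e-116 in the exact binomial test). It was 1.88 for Lama5 (adjusted p = 1.55e-308) and -2.13 for Lamb3 (adjusted p = 2.05e-24). Lama3 was called at an adjusted p of 0.0252 between replicates 2 and 3 in the exact binomial test, on 21 and 3 reads. For Lama4 the difference between replicates 2 and 1 was -0.04, with an adjusted p of 0.411 in the same exact test. Lamb1, Lamb2 and Lamc1 differed between replicates 1 and 2 beyond counting error too, but by less than 2-fold.

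By the stricter reading of a library apart from both others by more than 2-fold, 3 of the 8 laminin genes with a mean of at least 10 had replicate 2 apart, Lama1 and Lama2 above and Lamb3 below. For replicate 1 this held for Lama5, which was lower there, and for replicate 3 it held for Lamb3, which was higher, and for Lama1, which was lower. The shares of all genes were the 10.1%, 4.26% and 3.58% given above. Lama1 reached the mean of 10 through replicate 2 alone, so its place in this count follows partly from the minimum.

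The highest library was more than 2-fold above the lowest for 3 of the 7 detected laminin genes, Lama2, Lama5 and Lamb3, against 21.6% of all 12204 detected genes. The median range was 1.97-fold over the 7 and 1.49-fold over all detected genes, and the median SD of log2 values was 0.51 against 0.30. Without replicate 2, 2 of 7 remained past 2-fold, Lama5 and Lamb3, against 6.39% of 12545 genes. With 7 genes, such counts describe these members and carry no test.

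**Figure D2:**
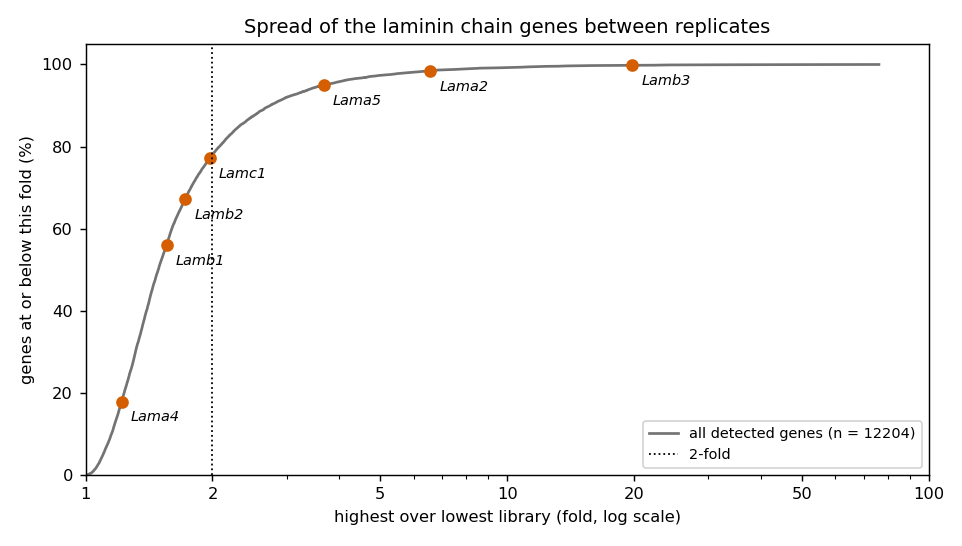
Share of all 12204 detected genes (%) whose highest library lies at or below a given fold over the lowest (grey curve, log scale), with the 7 detected laminin genes placed on it and 2-fold dotted. Lama4 at 1.22-fold sits in the lower part of the curve, Lama2 at 6.57-fold and Lamb3 at 19.8-fold at its upper end.

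The start regions of the detected laminin genes that differed more than 2-fold between libraries are shown, because the study is about the ERK-dependent factor AP-1 and its binding motif can be looked for in them. RefSeq start windows on GRCm38.p6 were read for 5 of the 9 genes, Lama2, Lama5, Lamb1, Lamb2 and Lamb3. Lama3 was left out of this search, and no window was available for Lama1, Lama4 and Lamc1. The bases before the RefSeq start are printed 5′ to 3′ on the strand of the gene. Lama2 is at chr10:27616943-27617192 (minus strand), Lama5 at chr2:180225860-180226109 (minus strand) and Lamb3 at chr1:193301744-193301992 (plus strand). Capitals mark GC boxes, GGGCGG or its reverse complement CCGCCC, which are bound by Sp1-type factors.
Lama2: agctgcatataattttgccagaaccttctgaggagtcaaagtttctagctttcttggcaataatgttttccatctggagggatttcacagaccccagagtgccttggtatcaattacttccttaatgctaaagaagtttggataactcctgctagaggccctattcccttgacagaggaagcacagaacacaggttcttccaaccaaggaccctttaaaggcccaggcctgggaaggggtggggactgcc
Lama5: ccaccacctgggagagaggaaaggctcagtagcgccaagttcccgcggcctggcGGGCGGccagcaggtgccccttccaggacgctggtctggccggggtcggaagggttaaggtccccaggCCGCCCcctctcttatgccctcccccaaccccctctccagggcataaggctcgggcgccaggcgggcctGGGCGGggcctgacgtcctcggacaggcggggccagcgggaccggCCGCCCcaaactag
Lamb3: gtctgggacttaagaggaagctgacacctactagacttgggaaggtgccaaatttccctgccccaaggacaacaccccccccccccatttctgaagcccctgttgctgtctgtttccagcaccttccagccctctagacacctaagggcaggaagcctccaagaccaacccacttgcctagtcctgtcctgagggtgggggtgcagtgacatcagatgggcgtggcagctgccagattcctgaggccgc
Lama2 and Lama5, both highest in replicate 2, have unlike start regions. The Lama5 window held 4 GC boxes, 19 CpG pairs and 72.4% G and C, while the Lama2 window held no GC box, no CpG pair and 47.2% G and C. The Lamb3 window, of the gene that was lowest in replicate 2, had no GC box either, with 2 CpG pairs and 58.8% G and C. The AP-1 motif TGANTCA, searched on both strands, was in none of the 6 windows of the 5 genes (Lamb3 has an additional start), and it occurs in 6.73% of all 32536 RefSeq windows of the same 250 bases. The TATA motif TATAAA was in none of them, against 12.3% of all windows, and the GC box was in the windows of Lama5 and Lamb1, against 33.0%. Over the 11664 windows of genes detected here, as all 5 of these genes were, the shares were 4.54% for AP-1, 6.28% for TATA and 58.7% for the GC box, so that GC boxes were no more frequent among the laminin genes. For Lama2, Lamb1, Lamb2 and Lamb3 the GENCODE annotation reaches further upstream than these starts, so they are not the only starts known. Annotated exon covers 59 bases of the Lamb1 window, 43 of the Lamb2 window and 149 of the window at the additional Lamb3 start.

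Levels of different genes can be compared only per length. Normalized counts were divided by the exonic length of each gene in kb, taken as the union of all annotated exons. On this scale Lamb2 stood first with 841 ± 239 normalized counts per kb, followed by Lamc1 with 466 ± 150 and Lamb1 with 458 ± 119 (SD, n = 3). Lama5 with 139 ± 82.6 and Lama4 with 135 ± 14.7 came next (SD, n = 3). Lower still were Lamb3 with 44.8 ± 53.3, Lama2 with 17.8 ± 17.4, Lama1 with 1.90 ± 2.84 and Lama3 with 0.758 ± 0.549 normalized counts per kb (SD, n = 3).

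Neighbours in this order were compared within each library. Lamb2 was above Lamc1 in 3 of 3 libraries, by 0.87 ± 0.43 on the log2 scale of levels per kb (SD, n = 3, exact sign-flip permutation test, two-sided, p = 0.25, the smallest that 3 libraries allow). Lamb1 was above Lama5 by 1.88 ± 0.70, Lama4 above Lamb3 by 2.504 ± 2.01 and Lama2 above Lama1, each in 3 of 3 libraries. Lamc1 and Lamb1 were not separated, with a difference of 0.00 ± 0.39, nor were Lama5 and Lama4 with -0.15 ± 0.96 or Lamb3 and Lama2 with 0.88 ± 3.28, and the order of Lama1 and Lama3 changed between libraries as well. The alpha-5 gene lay above the alpha-4 gene in replicate 2 alone, with 226 against 125 normalized counts per kb. In replicate 1 the values were 61.5 for Lama5 and 129 for Lama4, and in replicate 3 they were 130 and 152.

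This order depended on the length used, because the annotation lists long extra exons for some genes. The union of exons of Lama4 spans 12068 bases and its longest transcript 6046, while both lengths are 11388 bases for Lama5. Per kb of the longest transcript, Lama4 had 269.9 ± 29.4 normalized counts and lay above Lama5, with 139 ± 82.6, in 3 of 3 libraries. Lamb1 had 784 ± 203 on that scale and moved above Lamc1 with 506 ± 162, close to Lamb2 with 909 ± 258 (SD, n = 3). Under both lengths the beta-1, beta-2 and gamma-1 genes filled the first 3 places and Lama3 and Lama1 the last.

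**Figure D3:**
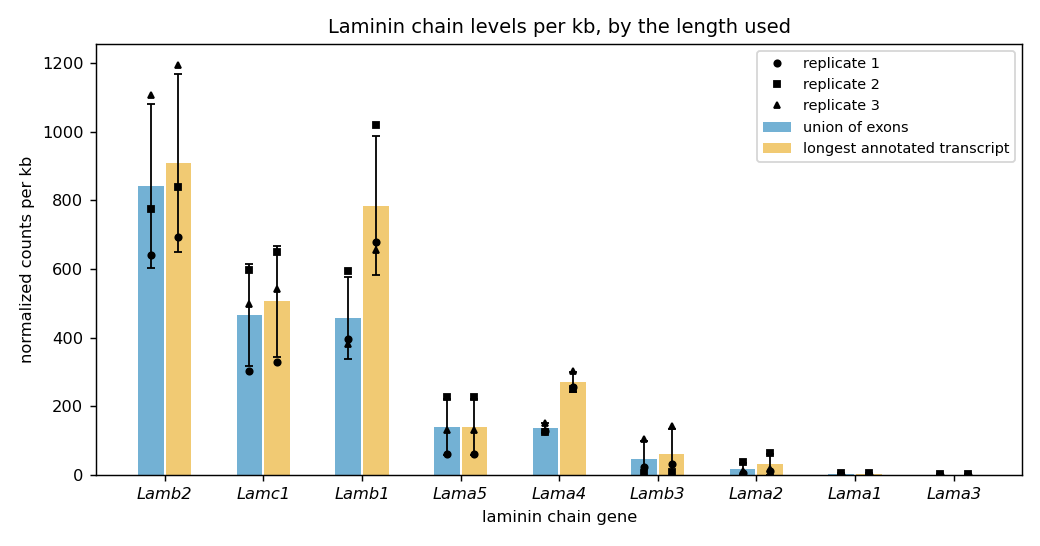
Mean level of each laminin gene in normalized counts per kb (bars, SD as error bars, n = 3, symbols for the replicates), divided by the union of exons (blue) or by the longest annotated transcript (yellow). Lama4 rises from 135 to 269.9 and Lamb1 from 458 to 784 when the longest transcript is used, while Lama5 stays at 139.

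Since a trimer takes 1 chain of each class, the make-up of the alpha and the beta class was read per kb of exonic length. Among the alpha chains, Lama4 gave 65.3%, 31.6% and 52.1% of the class in replicates 1, 2 and 3, on average 49.7% ± 16.99 (SD, n = 3). Lama5 gave 31.2%, 57.2% and 44.4%, on average 44.3% ± 12.99. Without replicate 2 the averages were 58.7% for Lama4 and 37.8% for Lama5. Lama4 was the larger in replicates 1 and 3 and Lama5 in replicate 2, a reversal that is not seen with the longest transcripts, where Lama4 gave 78.0%, 45.6% and 67.4% and Lama5 18.7%, 41.4% and 28.8%. Lama2 made up 2.91%, 9.55% and 3.36% of the alpha class, and Lama1 and Lama3 together stayed below Lama2 in every library.

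In the beta class, Lamb2 gave 60.4%, 56.4% and 69.4% and Lamb1 37.3%, 43.2% and 24.0% in replicates 1, 2 and 3, so beta-2 transcripts led in all of them. The lead of Lamb2 rested on the length used, as per kb of the longest transcript Lamb1 gave 54.7% in replicate 2, against 45.0% for Lamb2. Lamb3 gave 2.24%, 0.387% and 6.61% of the beta class. Summed per kb, the alpha genes reached 197, 395 and 292 normalized counts and the beta genes 1062, 1375 and 1594. The beta sum was 4.78 ± 1.12 times the alpha sum (SD, n = 3), and it was the larger in every library. Transcript shares do not give the share of secreted trimers, which was not measured.

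**Figure D4:**
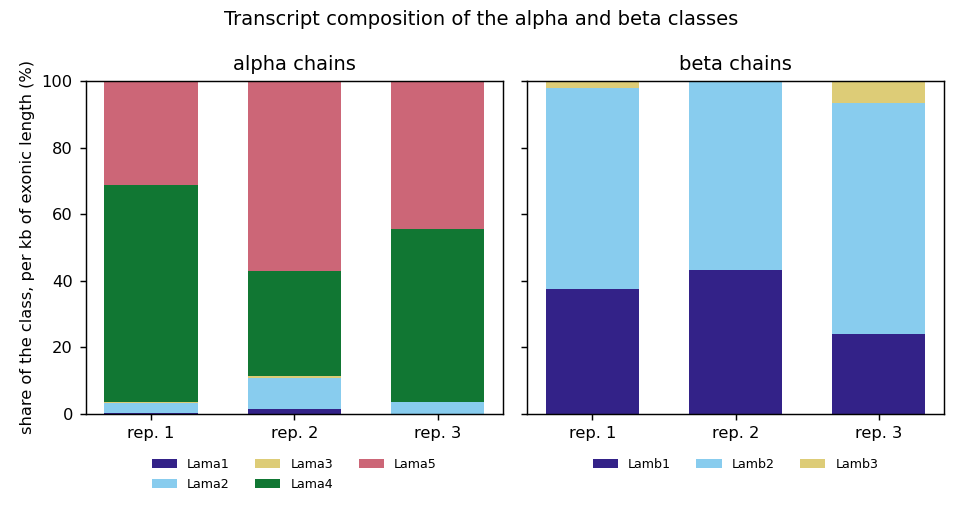
Share (%) of each gene within the alpha and beta chain classes in replicates 1, 2 and 3, from normalized counts per kb of exonic length. Lama4 falls from 65.3% in replicate 1 to 31.6% in replicate 2 as Lama5 goes from 31.2% to 57.2%, and Lamb2 keeps at least 56.4% of its class.

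The genes whose levels ran most like Lamb3, the detected laminin gene with the widest range, were sought among the 9992 genes with a mean of at least 100 normalized counts. Likeness was the Euclidean distance between centred log2 values over the 3 libraries, a description that many genes can share with so few libraries. Nearest was Mmp9, a gelatinase, with 157, 23.3 and 550 normalized counts across replicates 1, 2 and 3 and a distance of 0.41. It was followed by Itgbl1 (0.60), Coch (0.68), Pcolce2 (0.84) and Sox6 (0.89), all lowest in replicate 2 and highest in replicate 3.

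All 8 genes of a laminin receptor list were detected. Of these, 3 ranged over more than 2-fold, against 21.6% of all 12204 detected genes. Such counts, here and for the lists below, describe their genes and carry no test. Itgb1, the beta-1 integrin subunit shared by most laminin-binding integrins, had 36265, 37118 and 42075 normalized counts across replicates 1, 2 and 3 and was steady. The alpha subunits that pair with it differed from each other. Itga3, which binds alpha-3 and alpha-5 laminins, had 1791, 884 and 3109 normalized counts. Itga6 had 464, 260.0 and 666, and like Itga3 and Lamb3 it was lowest in replicate 2 and highest in replicate 3. Itga7, a receptor of muscle laminin, had 883, 1067 and 1009, with a 1.21-fold range. Itgb4, the hemidesmosome subunit that pairs with alpha-6 in keratinocytes, had 11.3, 19.7 and 16.6 normalized counts. Dag1, which encodes dystroglycan, had 2574, 4491 and 3945, and Cd151, a tetraspanin that associates with laminin-binding integrins, had 3537, 4283 and 4064. Bcam, a receptor of alpha-5 laminins, had 102, 118 and 55.7 normalized counts, the third receptor past 2-fold.

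Dystroglycan binds laminin through sugar chains, and 8 of 9 listed genes of that glycosylation pathway were found in the table. All 8 were detected and none ranged over more than 2-fold, against 21.6% of all 12204 detected genes. Their median range was 1.34, against 1.49 over all detected genes. By the rule for naming genes, Pomgnt1 had 2137, 2199 and 2900 normalized counts and B3galnt2 had 1350, 1008 and 1268 in replicates 1, 2 and 3. The widest ranges were those of Pomt1 with 235, 440.4 and 382 and Pomt2 with 421, 594 and 606, which encode the pair of enzymes that starts the chain.

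Of 12 basement membrane partners, 10 were detected and 6 ranged over more than 2-fold, against 21.6% of all 12204 detected genes. The median range was 2.10, against 1.49 over all detected genes. Col4a1 and Col4a2, the main chains of the type IV collagen network, had 14977, 41088 and 31454 and 11085, 31625 and 23837 normalized counts across replicates 1, 2 and 3. Both were lowest in replicate 1 and highest in replicate 2, the order also seen for Lama2, Lama5 and Lamc1. Col4a3 had 50.4, 12.0 and 93.6, in the order of Lamb3, and Col18a1 had 299, 569 and 1597 normalized counts, highest in replicate 3. Nid1, whose product bridges gamma-1 laminins to type IV collagen, was added after its values were seen, with 14211, 25226 and 15540.

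**Figure D5:**
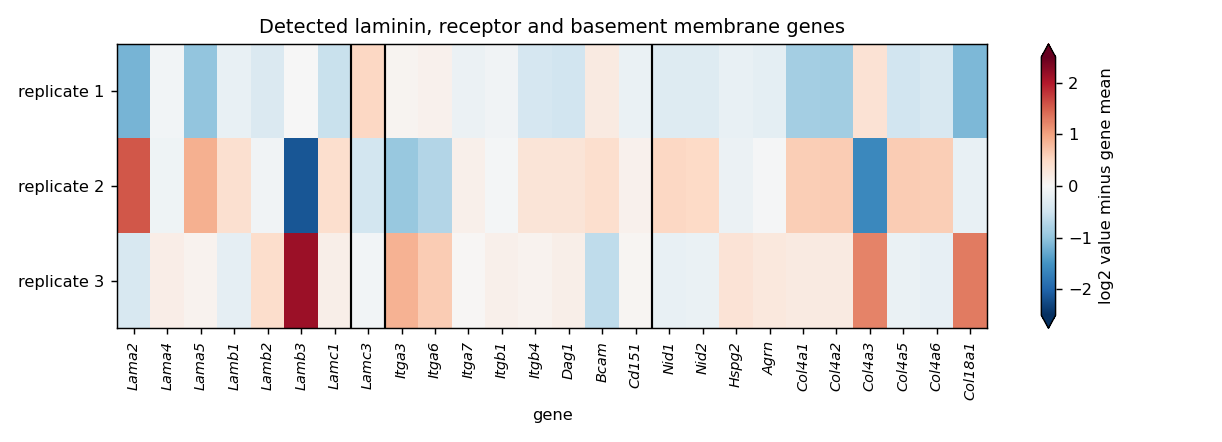
Log2(normalized count + 1) minus the mean of each gene over the 3 libraries (colour, from blue for below to red for above the mean) for the detected laminin genes, Lamc3, the laminin receptors and the basement membrane partners, separated by lines. Lama2, Lama5, Col4a1 and Col4a2 are red in replicate 2, where Lamb3, Itga3, Itga6 and Col4a3 are blue.

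Genes that act on or beside laminins in other ways were read from further lists. Of 7 protease genes, 5 were detected and 3 ranged over more than 2-fold, against 21.6% of all 12204 detected genes. Plau, the urokinase gene, had 28792, 10675 and 44245 normalized counts across replicates 1, 2 and 3, and Mmp14, a membrane-bound metalloproteinase of the pericellular matrix, had 13724, 15866 and 20812. Tll1, of the BMP1 family that trims laminin chains, had 52.1, 135 and 13.04. Plau thus followed the library order of Lamb3, and Tll1 was highest in replicate 2. Of 4 genes of the epidermal anchoring complex, 3 were detected. Col7a1, the anchoring fibril collagen, had 693, 3858 and 610.4 normalized counts, Dst had 1676, 931 and 1336, and Plec had 11902, 15916 and 16479. Replicate 2 was high for Col7a1, as for Lama2, while Plec and Dst stayed within 2-fold. Of the netrins, which share the laminin N-terminal fold, 3 of 4 were detected. None of the 3 ranged over more than 2-fold, against 21.6% of all 12204 detected genes. Ntn4, which can bind laminin short arms, had 1333, 2090 and 2010 normalized counts, Ntn1 had 574, 433 and 552, and Ntn3 had 144, 128 and 178.

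Markers of other cell types that make laminins were read in the same libraries. Keratinocytes make the epidermal trimer, and 2 of 10 of their markers were detected, Sfn and Krt10. The list summed to 1601, 332 and 1529 normalized counts across replicates 1, 2 and 3, nearly all of it Sfn, with Krt15, Krt1 and Dsg3 at 0 in all libraries and Krt5 and Krt14 at no more than 2.37. Sfn had 1507, 287 and 1482 normalized counts, lowest in replicate 2 as Lamb3 was, and Krt10 had 80.8, 39.5 and 32.0. Trp63, not called detected, had 6.08, 3.52 and 10.7, the library order of Lamb3. Cdh1 and Epcam, also not called detected, were highest in replicate 1. Leukocyte markers, 2 of 8 detected, summed to 165, 116 and 721, the library order of Lamb3, with Lyz2 at 123, 62.7 and 601 and Ptprc at no more than 1.74. Without Lyz2 the list summed to 41.7, 53.6 and 120, still highest in replicate 3 but not in the library order of Lamb3. The other detected marker, Cd68, had 22.6, 33.1 and 27.3. Laptm5, Adgre1, Tyrobp and Cd52, not called detected, were highest in replicate 3, with Laptm5 at 1.74, 4.93 and 36.7. Ptprc and Cd74 were highest in replicate 1. The part of keratinocytes and leukocytes in the Lamb3 difference was not tested.

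For Lama2, Lama5 and Lama1, which were highest in replicate 2, lists of vascular, nerve and muscle cells apply. Of the endothelial list, 1 of 8 was detected, and it summed to 93.8, 248 and 56.9 normalized counts, with Tek at 6.95, 185 and 2.37 and Cdh5, Cldn5 and Emcn at no more than 1.19. Its detected marker was Egfl7 with 69.5, 53.6 and 49.8, and without Tek the list summed to 86.8, 62.7 and 54.5, highest in replicate 1. The smooth muscle and pericyte list, 6 of 8 detected, summed to 6277, 9862 and 12809, with Des at 212, 1208 and 77.0 and Notch3 at 40.8, 228 and 23.7. Of the 6 detected genes of this list, 4 were highest in replicate 2 (Des, Notch3, Myh11 and Mcam). Rgs5, with 208, 106 and 104, was highest in replicate 1. Kcnj8 and Abcc9 were not detected, at no more than 4.23. The sum followed Cspg4, with 3546, 5232 and 11476 normalized counts, and was 2731, 4629 and 1333 without it. Schwann cell markers, 2 of 7 detected, summed to 188, 96.5 and 75.9, and Sox10 was at no more than 2.37. Skeletal muscle markers, 1 of 6 detected, summed to 2431, 7286 and 5591, almost all of it Acta1, with Myod1 and Pax7 at 0. None of the 4 adipocyte markers was detected, and their sum was at most 3.47. What these cell types contributed to the laminin levels was not tested.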

How the data were processed

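RNA-seq (stranded mRNA kit) of 3 libraries of the MG + PD0325901 condition was analysed. The table holds 3 more columns of library values that no label assigns to a sample, and these were left out. The authors aligned single-end reads to mm10 with TopHat2 2.0.13 and counted uniquely mapped reads per gene with HTSeq 0.5.3p3. The gene annotation and strand setting are not given in the sources used here. The deposited signal is a normalized count, the read count divided by 1 DESeq size factor per library (1.15, 1.42 and 0.844). In each library 100% of values were whole multiples of 1 read within 0.01 reads, so reads were recovered by division. Of the table's names, 27 had turned into dates, holding 0.231% of reads.

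Positions and lengths came from GENCODE M21 (GRCm38), and start windows from RefSeq (GRCm38.p6). No stretch of 50 bases of a member's annotated transcripts occurred in transcripts of another gene. In exons, Lama2 overlapped the antisense gene Gm48084 over 631 bases and Lama3 overlapped Gm29200 (0 reads) over 197.

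Means, SDs, exact binomial tests and exact permutation tests were computed in Python 3.11.15 with numpy 2.4.6, pandas 2.3.3 and scipy 1.17.1. Log2 values had a pseudocount of 1, except the differences per kb, which had an offset of 0.01. The differences per kb recomputed under an alternative had no offset. TMM factors came from edgeR 4.0.16 in R 4.3.3. The steps were tested on simulated counts. All members were named. From each list, the 2 detected genes with the highest mean and the 2 with the widest range were named, and the receptors and Lamc3 in full. Some results are not reported here, among them the make-up of the gamma class. The members and lists were chosen with earlier results of these data known. The alternatives were other scalings, minimums, fold limits, pseudocounts and lengths and each replicate left out.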

Additional observations from a re-analysis of the deposited data

How the results depend on the processing

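Of the values recomputed under an alternative, 166 stayed within their limits and 18 moved. The limit of a mean, log2 difference or share was its SD. Leaving out 1 of 3 libraries cannot shift such a value that far. Scaling a library cannot change differences, shares or the order within it. Many of the 166 could therefore not have moved, and their number does not measure robustness. Scaling to equal totals shifted no library by more than 0.0547 on the log2 scale, but took Lamc1 past 2-fold, so that 5 and not 4 members differed between replicates 1 and 2 and 4 and not 3 had a range above 2-fold. TMM changed no count. Most moves in the order and shares came from dividing by the longest transcript, which changes each gene's length: the log2 difference per kb became -0.66 for Lamc1 minus Lamb1, 2.66 for Lamb1 minus Lama5 and -1.14 for Lama5 minus Lama4. The share of its class became 29.6% for Lama5, 45.3% for Lamb1 and 51.4% for Lamb2. Neighbours ordered alike in all libraries numbered 4 of 8, and 4 to 7 with a replicate left out, the most without replicate 2.

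With adjusted p alone, 7, 6 and 9 members differed between replicates 1 and 2, 1 and 3, and 2 and 3, by construction. At 1.5-fold, 5 differed between replicates 1 and 3, 3 had replicate 1 apart and 6 had a range past the limit. With a minimum of 100, 2 differed between replicates 2 and 3, 1 had replicate 3 apart and 1 had a range above 2-fold, as low members dropped out. With no minimum 5 had such a range, and with a pseudocount of 10, 1 had replicate 3 apart. No paired analysis was possible because 1 condition was analysed. Depth limited Lama1 and Lama3, and counting intervals cover counting error only.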
